A study of Homo sapiens with 4 samples.

Results

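The narrowest peaks of a PRMT5 RNA immunoprecipitation sequencing (RIP-seq) experiment were 25 nucleotides (nt) wide. They were taken from the deposited peak list as all peaks of exactly 25 nt that carried 1 gene identifier, which gave 2697 of the 18993 peaks, in 2053 genes. A further 159 peaks of 25 nt carried several identifiers and were left out. No peak was narrower than 25 nt, and among the 17355 peaks with 1 identifier the next widths were 26 to 49 nt with 32 peaks and 50 nt with 1444 peaks. The choice used width and identifier only, not the measured levels.

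The list came from Jurkat cells, a human T cell leukemia line in long use, grown in RPMI1640 with fetal bovine serum. All 4 libraries were from cells stimulated with phytohemagglutinin (PHA), a lectin that activates T cells, for 48 hours and crosslinked with UV, which the labels give as 264 nm and 400 mJ. Of these, 2 libraries were PRMT5 RIP, made after immunoprecipitation by the FLAG tag, and 2 were input. No unstimulated, non-crosslinked or mock immunoprecipitated group was used here. Each peak has 1 pooled value in reads scaled to the size of the library (RPM) for PRMT5 RIP and 1 for input, so no spread between replicates could be given, no test was possible, and the depth behind each value is unknown. Of 16 T cell marker genes 12 had a listed peak of any width, against 1 of 12 B cell and myeloid marker genes. A gene without a peak is only not listed, which says nothing of its expression.

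PRMT5 is an arginine methyltransferase that acts with its partner WDR77, a WD40 repeat protein also called MEP50, and is known for methylating histones and the Sm proteins of the splicing machinery. RIP-seq reads the RNA that comes down with a protein, and the input reads the RNA that was there to begin with. A peak is a stretch that the authors' peak caller listed, by a rule that is not given in the sources used here. A 25-nt peak is the smallest stretch this list contains. The log2 ratio used throughout compares the 2 RPM values of 1 peak after adding 0.01 to each.

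A small set of 25-nt peaks could be read as sequence, because they lay inside the stretch from 250 nt before to 50 nt after the annotated start of their own gene (RefSeq, GRCh38.p14). There were 78 such peaks, or 2.89% of all 25-nt peaks, and 55 of them lay wholly in the first 50 nt of the gene. Several of these 55 held GTGAGT or GTAAGT, the letters with which many human introns begin. They were 5 of 55 (9.09%), against 1.01% of all 25-nt stretches in the first 50 nt of 35116 start windows. These letters were searched on the transcribed strand after the sequences had been read, and a match does not show that a splice site is used there. Of the 5, 4 are printed 5′ to 3′ with these letters in capitals, followed for comparison by the peaks of WDR77, FARSA-AS1 and RABEPK, which have none.
KAT5: gcggaggtgGTGAGTccggtgcccg
EXOSC8: tggcggctgggttcaaGTGAGTgtt
MRFAP1: ttcgccgttactctgcgcGTAAGTc
USP20: cgcagttgcgagtgcagGTGAGTtc
WDR77: ggtttgctgccggagcggagtctcc
FARSA-AS1: cagtcgctggaaaagagaggctgca
RABEPK: agtcgccgcaggtattgcagtccgg

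EXOSC8 encodes a subunit of the RNA exosome, and its peak at chr13:37000807-37000831 (GRCh38) on the plus strand held bases 22 to 46 of the gene, with 0.31 RPM in PRMT5 RIP against 0.1 RPM in input. The acetyltransferase gene KAT5 had 0.14 and 0.02 RPM at chr11:65712271-65712295 (plus). In both, the PRMT5 RIP value was the higher one. MRFAP1 had 0.14 RPM in PRMT5 RIP against 0.04 RPM in input at chr4:6640691-6640715 (plus). USP20, a gene for a deubiquitinating enzyme, had 0.13 and 0.02 RPM at chr9:129835483-129835507 (plus). The log2 ratios of these 4 peaks ran from 1.54 in EXOSC8 to 2.32 in KAT5. Over all 5 peaks with these letters the range was 1.11 to 2.32 and the median 1.58, beside a median of 1.26 in the 50 others.

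The sequences near gene starts were rich in G and C. The median GC content was 64% in the 55 peaks, with a range from 24% to 88%, against 60% in the first 25 nt of all 35116 windows. A CG dinucleotide was found in 51 of the 55, but its share in all windows was not computed. The pentamer ATTTA, the core of AU-rich elements, was in 0 of the 78 peaks and in 1.15% of the first 25 nt of all windows. At so low a share, 78 peaks are too few to show a lack of it. Peaks of 25 nt farther inside genes were not read, since only the start windows gave sequence.

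As whole peaks, 25-nt peaks were the faintest width of the list by their median, but not per length. Their PRMT5 RIP values had a lowest value of 0.13 RPM, a median of 0.23 RPM and a highest value of 3148 RPM, with quartiles of 0.17 and 0.37 RPM. The input values of the same peaks ran from 0 to 4022 RPM with a median of 0.11 RPM and quartiles of 0.05 and 0.26 RPM. Only 182 of them (6.75%) reached 1 RPM in PRMT5 RIP, whereas 72.8% of the 14658 wider peaks did. The wider peaks had medians of 2.56 RPM in PRMT5 RIP against 1.1 RPM in input, but RPM was not divided by length, and a wider peak collects more reads. Per 25 nt of peak, the median PRMT5 RIP level was 0.23 RPM in 25-nt peaks, 0.23 RPM in 50-nt peaks, 0.257 RPM in 75-nt peaks and 0.263 RPM in 100-nt peaks. It was 0.188 RPM over all wider peaks, 0.0497 RPM in those of over 1000 and up to 5000 nt and 0.0161 RPM in those over 5000 nt. The median per 25 nt was 0.536 RPM in the 32 peaks of 26 to 49 nt and 0.288 RPM in peaks of 125 to 250 nt. In those of over 250 and up to 1000 nt it was 0.252 RPM. Per length, 25-nt peaks were thus level with or fainter than each of these classes up to 1000 nt. They were brighter only than the classes over 1000 nt, and than the median over all wider peaks, which includes those classes. Width was taken from the listed start to the listed end, so any intron inside a peak was counted.

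The difference between PRMT5 RIP and input was nearly the same RPM in most 25-nt peaks. Its median was 0.11 RPM with quartiles of 0.1 and 0.12 RPM, and 1979 of the 2697 peaks (73.4%) lay between 0.09 and 0.13 RPM. The same band held 31 of the 1444 peaks of 50 nt (2.15%) and 590 of the wider peaks (4.03%). The median difference grew with width, to 0.23 RPM at 50 nt, 0.38 RPM at 75 nt and 0.52 RPM at 100 nt. Per 25 nt these were 0.115, 0.127 and 0.13 RPM. The step was thus nearly the same in most 25-nt peaks, but not in those with the most input. The list itself resolves steps of 0.01 RPM.

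With a step nearly constant at low input, the log2 ratio of 25-nt peaks fell as input rose. The median log2 ratio was 2.22 in the 375 peaks with at most 0.03 RPM in input, 1.00 in the 163 peaks with 0.1 to 0.11 RPM, and 0.24 in the 273 peaks with 0.35 to 0.68 RPM. In the 265 peaks with 0.69 RPM or more it was -0.05, so PRMT5 RIP and input were close to equal there. Among the 182 peaks that reached 1 RPM in PRMT5 RIP, 127 (69.8%) had less signal in PRMT5 RIP than in input, and their median log2 ratio was -0.14. Of wider peaks of at least 1 RPM, 447 of 10665 (4.19%) were lower than input, and their median log2 ratio was 1.06. The cut at 1 RPM kept 6.75% of 25-nt peaks but 72.8% of wider peaks, so unlike parts were compared. Other narrow widths were also nearer to equality at high input. With 0.69 RPM or more in input, the median was 0.18 in 50-nt peaks and 0.50 in peaks of 75 or 100 nt. It was 0.90 in all wider peaks.

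**Figure D1:**
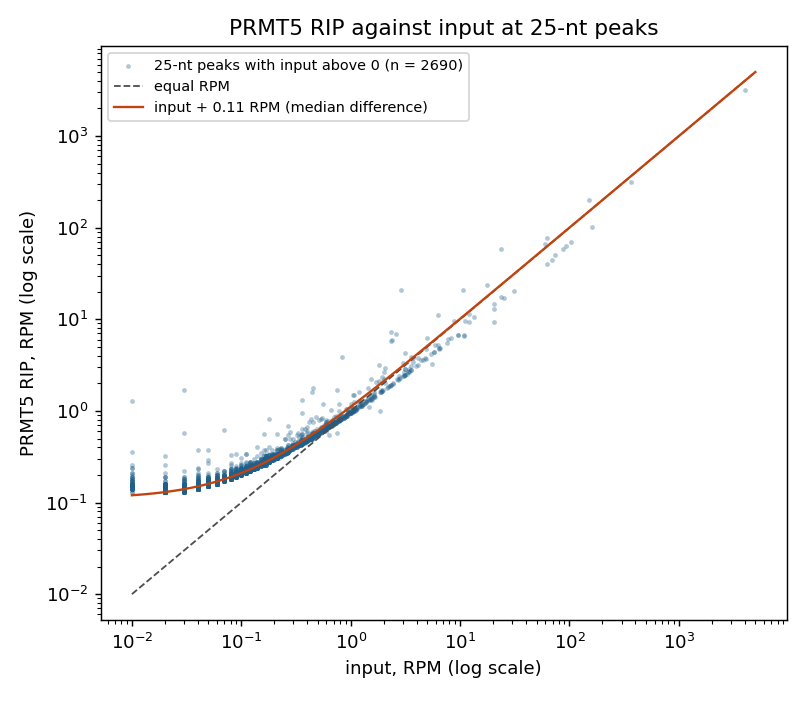
PRMT5 RIP against input in RPM, both on log axes, for the 2690 peaks of 25 nt with input above 0, each point 1 peak. The red curve is input plus the median difference of 0.11 RPM and the dashed line is equal RPM; most points follow the red curve at low input and fall to or below the dashed line at high input.

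Over all 25-nt peaks the median log2 ratio was 0.95, with quartiles of 0.51 and 1.5 and a range from -1.14 to 6.95. Wider peaks had a median of 1.15, and 50-nt peaks 1.16. A ratio of at least 2-fold was found in 1334 of the 2697 peaks (49.5%), against 57% of all 17355 peaks with 1 identifier and 58.3% of the wider ones. Values lower in PRMT5 RIP than in input were found in 158 of the 25-nt peaks (5.86%), against 3.54% of all peaks and 3.12% of the wider ones. Of those 158 peaks, 127 (80.4%) had at least 1 RPM in PRMT5 RIP. Rounding alone sets wide bounds at the faint end. At 0.13 RPM in PRMT5 RIP against 0.02 RPM in input the log2 ratio of 2.22 could lie between 1.95 and 2.54, and at 0.23 and 0.11 RPM the ratio of 1.00 could lie between 0.91 and 1.09.

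At equal input, 25-nt peaks had lower ratios than wider peaks. Both sets were placed in the 10 classes of input RPM that divide the 25-nt peaks, and the class medians were averaged with the number of 25-nt peaks as weight. The 25-nt peaks had a weighted median of 1.00 and the wider peaks 1.80, a difference of -0.80, and the 25-nt peaks were lower in 10 of 10 classes. Against 50-nt peaks alone the difference was -0.58, again lower in 10 of 10 classes. Against peaks of 75 or 100 nt it was -1.22, or -1.06 over 9 classes without the lowest, which held 10 such peaks. Against peaks of over 100 and up to 1000 nt it was -0.82, and against those over 1000 nt it was -0.45, where 9 of 10 classes were lower. The size of the difference thus changed with the width of the peaks compared. The median ratio of wider peaks also fell with input, from 2.81 in the lowest class to 0.90 in the highest. Equal RPM in a wider peak is a lower RPM per nucleotide, so the matching on input did not also match the level per length. The 5th percentile of PRMT5 RIP was 0.14 RPM at 25 nt, 0.28 RPM at 50 nt, 0.44 RPM at 75 nt and 0.59 RPM at 100 nt. Narrow peaks were thus listed from a PRMT5 RIP level that rose with width, and ratios at equal low input were not free of it. Its part in the matched difference was not tested. The matched difference was larger than that of the unmatched medians, 0.95 and 1.15. With a pseudocount of 1 it was smaller, as the unmatched medians were then 0.13 and 0.56 and the matched difference -0.26.

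The same order was seen inside genes. In the 1693 genes with both kinds of peak the median over genes was 0.89 for 25-nt peaks and 1.16 for wider peaks. The 25-nt value was the lower one in 1148 genes (67.8%) and the higher one in 540. In the 230 genes where the 2 input values lay within 2-fold of each other, the 25-nt value was lower in 204 (88.7%), with a median difference of -0.51 on the log2 scale. These are peaks of the same list, so the limit set by the listed PRMT5 RIP level at each width applies here too.

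The 25-nt peaks were seldom alone in their gene. Another listed peak was found in the same gene for 2398 of them (88.9%), compared with 84.1% of 50-nt peaks and 76.6% of all wider peaks. Another peak of the gene on the same strand lay within 100 nt for 1292 (47.9%), against 41.6% of 50-nt peaks, 35.7% of peaks of 75 or 100 nt and 32.1% of all wider peaks. The neighbor was a wider peak in 951 of the 1292, with a median width of 250 nt, and another 25-nt peak in the remaining 341. In 173 a peak lay within 100 nt on both sides. The neighbor was thus wider in 73.6%, below the 84.5% of wider peaks among all peaks with 1 identifier. It was 25 nt wide in 26.4%, above the 15.5% of 25-nt peaks in that list.

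Most short distances came in steps of 25 nt. The gap was exactly 25 nt for 814 peaks (30.2%), 50 nt for 290, 75 nt for 112 and 100 nt for 76, and 0 peaks overlapped another peak of their gene. Of the 1491 gaps of up to 250 nt, 1438 (96.4%) were multiples of 25 nt. Short gaps were thus mostly, though not all, multiples of 25 nt. This was not particular to 25-nt peaks. The gap was also exactly 25 nt for 25.8% of 50-nt peaks and 17.1% of all wider peaks. Of the 2506 wider peaks with a gap of at most 25 nt, 2503 had exactly 25 nt. Peaks of 26 to 49 nt show that listed widths did not all follow such steps. Whether such a neighbor and the 25-nt peak are separate sites was not tested.

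Peaks near a neighbor and peaks without one differed in ratio but not in step. Those within 100 nt of another peak had medians of 0.25 RPM in PRMT5 RIP against 0.13 RPM in input, and a median log2 ratio of 0.87, with 44.7% at least 2-fold higher. All 1405 others had a median log2 ratio of 1.06, with 53.8% at least 2-fold higher. The 1106 of them with a neighbor farther than 100 nt were close to the near set, at 0.94 and 48.3%. The 299 peaks that were the only one listed for their gene had medians of 0.17 and 0.06 RPM and a median log2 ratio of 1.42, and 74.2% of them were at least 2-fold higher. The median difference was 0.11 RPM in each of these sets, so the ratio moved with input.

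Most genes, 1568 of the 2053, had a single 25-nt peak, 362 had 2, 98 had 3 and 25 had 4 or more. In 360 genes every listed peak was 25 nt wide. Runs of 25-nt peaks with gaps of at most 100 nt held 385 peaks, in 176 runs of 2 and 11 runs of 3. The longest run of mixed widths that held a 25-nt peak had 7 peaks. KEAP1, the substrate adaptor that directs the antioxidant regulator NRF2 to degradation, was the only gene with 6 of them.

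In KEAP1, on the minus strand of chromosome 19, the 6 peaks had 0.28, 0.34, 0.35, 0.36, 0.47 and 0.73 RPM in PRMT5 RIP. Their input values, in the same order, were 0.16, 0.21, 0.25, 0.23, 0.35 and 0.68 RPM. PRMT5 RIP was above input in all 6, by 0.05 to 0.13 RPM, and the log2 ratio ran from 0.10 to 0.77 with none at 2-fold. A wider peak, 25 nt away from the brightest of them, had 8.2 and 6.47 RPM and a log2 ratio of 0.34. All 6 lay in the later part of the gene, from 64.8% to 97.5% of its length.

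A further 9 genes had 5 peaks of 25 nt each. SF3A1, a subunit of the U2 snRNP of the spliceosome, ran from 0.15 to 1.09 RPM in PRMT5 RIP and from 0.04 to 1.14 RPM in input. Its faintest peak had the log2 ratio 1.68, and its 2 brightest had more signal in input, at -0.07 and -0.06. ZC3H18, a zinc finger protein that links the nuclear cap-binding complex to RNA decay, held fainter peaks of 0.13 to 0.23 RPM over inputs of 0.02 to 0.13 RPM, and 4 of its 5 were at least 2-fold higher. ARHGAP30, a GTPase-activating protein, had 4 peaks of 0.15 to 0.17 RPM and 1 of 0.32 RPM, with input between 0.01 and 0.21 RPM. LIG1, the DNA ligase of replication, had 0.2 to 0.38 RPM over inputs of 0.09 to 0.28 RPM, and 1 of its peaks was at least 2-fold higher. VASP, an actin regulator, and ZCCHC17, a zinc knuckle protein, had 3 such peaks each. ARFGAP1, GPR137 and BTBD6 completed the group, and the peaks of BTBD6 overlapped listed peaks of the opposite strand. In each of these 9 genes the largest ratio was that of a peak with the least input.

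PDCD1, which encodes the inhibitory T cell receptor PD-1, had 3 peaks of 25 nt on the minus strand of chromosome 2. The peak at chr2:241850459-241850483 (GRCh38) had 0.23 RPM in PRMT5 RIP against 0.11 RPM in input. The one at chr2:241850509-241850533 had 0.16 and 0.04 RPM, and the one at chr2:241850659-241850683 had 0.16 and 0.05 RPM. All 3 were higher in PRMT5 RIP, and of all 25-nt peaks only 5.86% were lower than input. The log2 ratios were 1.00, 1.77 and 1.5, and the differences of 0.12, 0.12 and 0.11 RPM were those of the typical 25-nt peak. The peaks were 25 and 125 nt apart and lay between 91.3% and 93.5% of the way through the gene. Their exon or untranslated region was not analysed here, since no exon coordinates were used. The remaining listed peak of PDCD1 was 292 nt wide, at 0.19 and 0.08 RPM.

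WDR77, the binding partner of PRMT5, had 1 peak of 25 nt at chr1:111449215-111449239 on the minus strand, with 0.27 RPM in PRMT5 RIP against 0.17 RPM in input. It held bases 18 to 42 of the gene and lay 25 nt from a peak of 1642 nt with 4.89 and 2.22 RPM. Its log2 ratio was 0.64, below the median of all 25-nt peaks, and that of the long neighbor was 1.14. RIOK1, an adaptor of PRMT5, had 1 peak near its start with 0.24 and 0.13 RPM. No 25-nt peak with a named gene was listed in PRMT5, AGO2 or GAPDH. The 248 peaks in genes without a name and the 159 with several identifiers were not part of this search.

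T cell receptor signaling passes from the receptor through kinases and adaptors to calcium and transcription factors. Of 80 genes of this pathway 48 had a listed peak and 12 had 25-nt peaks, 19 in all. Of these 19 peaks 7 were at least 2-fold higher in PRMT5 RIP, with a median log2 ratio of 0.75, and 2 were lower than input. The share of 36.8% is below the 49.5% of all 25-nt peaks, and their median input of 0.18 RPM was above the 0.11 RPM of all. The largest ratios were those of the kinase gene PAK2, with 0.15 and 0.04 RPM, and of PIK3CA, a catalytic subunit of phosphoinositide 3-kinase, with 0.15 and 0.05 RPM. The other 2 peaks of PAK2 were nearer to equality, with 0.44 and 0.35 RPM and with 0.51 and 0.42 RPM. The receptor subunit CD3E stood at the other end, with 1.44 RPM in PRMT5 RIP against 1.63 RPM in input. The adaptor LCP2, also called SLP-76, had 1 peak above input, with 0.27 and 0.11 RPM, and 1 just below it, with 0.96 and 1.01 RPM.

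Of 81 genes of mRNA decay and silencing 49 had a listed peak and 14 had 25-nt peaks, also 19 in all. Of these, 9 (47.4%) were at least 2-fold higher, with a median log2 ratio of 0.93, close to the values of all 25-nt peaks. The helicase gene UPF1 of nonsense-mediated decay had 2 peaks 25 nt apart, with 0.14 and 0.15 RPM in PRMT5 RIP over 0.03 and 0.04 RPM in input. PAN3, a subunit of a deadenylase, had 3 peaks within the first 1% of the gene's length, with 0.19, 0.21 and 0.23 RPM over 0.07, 0.09 and 0.11 RPM. Each of these 5 peaks was at least 2-fold higher and stood 0.11 or 0.12 RPM above input. The other 10 of the 19 did not reach 2-fold. They included EXOSC9 with 0.29 and 0.19 RPM, UPF3A with 0.37 and 0.27 RPM and 1 of the 2 peaks of the exonuclease gene XRN2 with 0.33 and 0.24 RPM. PABPC1, a poly(A)-binding protein, was the 1 peak below input, with 0.86 and 0.88 RPM.

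The runs of 3 showed how the ratio changed from one 25-nt peak to the next. NENF, a secreted heme-binding protein, had 1.68, 0.91 and 0.3 RPM in PRMT5 RIP from 5′ to 3′, and 1.89, 0.91 and 0.19 RPM in input. Its log2 ratios were -0.17, 0.00 and 0.63, rising as input fell. CD2, an adhesion receptor of T cells, had 0.87, 0.84 and 0.5 RPM over 0.86, 0.86 and 0.43 RPM, so all 3 were near equality. FAM193A had 0.13, 0.14 and 0.14 RPM over 0.02, 0.02 and 0.04 RPM, each at least 2-fold higher. The pseudogene RPL13AP5 was lower in PRMT5 RIP at all 3 peaks, the largest with 1.65 RPM over 1.94 RPM, and its reads can be shared with its parent gene. Further runs of 3 were in ARFGAP1, CLK3, TSR2, DNAJC30, REPIN1 and SLC61A1, and their log2 ratios ran between 0.00 and 1.91.

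The brightest 25-nt peaks included abundant RNAs. RN7SL1, an RNA of the signal recognition particle, had 3148 RPM in PRMT5 RIP against 4022 RPM in input, and its copy RN7SL4P 314 and 369 RPM. The mitochondrial mRNAs ND4, ATP8 and ND5 had 102, 69.1 and 63.2 RPM in PRMT5 RIP over 160, 103 and 93.1 RPM in input. All 5 were lower in PRMT5 RIP. RPL19, a ribosomal protein, and RACK1, a ribosome-bound scaffold, were lower as well, with 58.9 over 86.7 RPM and 44.5 over 68.9 RPM. HNRNPA1, a splicing regulator, had 77.2 over 62.5 RPM and UQCR11, a subunit of respiratory complex III, 21 over 10.7 RPM. Both had more signal in PRMT5 RIP. Of the 15 brightest 25-nt peaks, 5 were in genes left without a name. Of these 5, 3 were higher in PRMT5 RIP, with 199.6 over 149.8 RPM, 58.5 over 23.7 RPM and 23.6 over 17.6 RPM, and 2 were lower. Reads of RN7SL and ribosomal protein genes can be shared with near-identical copies, so the assigned values are uncertain.

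The smallest ratio was that of the histone pseudogene H3P6, with 9.23 RPM in PRMT5 RIP against 20.4 RPM in input, a log2 ratio of -1.14. TULP4 followed with 1 and 1.85 RPM, and the phosphatase gene PTP4A2 with 3.29 and 5.58 RPM. The proteasome subunit PSMA1 had 2 such peaks, with 6.61 and 6.71 RPM over 10.8 and 10.8 RPM. All 10 of the smallest ratios in named genes were in peaks of at least 1 RPM.

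At the high end, where input was required to reach 0.05 RPM, the 10 largest ratios in named genes included some in genes named as antisense. The share of such genes among all 25-nt peaks was not computed, so whether they are frequent among the 10 is unknown. Unnamed genes held 8 of the 21 ratios at or above the lowest of these 10, the largest with 20.96 RPM in PRMT5 RIP over 2.86 RPM (log2 ratio 2.87). THAP7-AS1 had 0.62 RPM in PRMT5 RIP against 0.07 RPM in input (log2 ratio 2.98), NOP53-AS1 0.81 and 0.18 RPM (2.11), and FARSA-AS1 1.76 and 0.45 RPM (1.94) at chr19:12930522-12930546 (plus). All 3 overlapped a listed peak of the opposite strand, and so did other peaks of the 10, such as that of SPEN. How strand was used in counting is not given in the sources used here. RPS6, the ribosomal protein phosphorylated downstream of mTOR, was the brightest of the 10 named, with 3.91 and 0.84 RPM at 3.21% of the way through its gene. RPL23 had 0.29 and 0.05 RPM, and the checkpoint kinase gene CHEK1 0.33 and 0.08 RPM. RABEPK had 0.23 and 0.06 RPM at chr9:125200567-125200591 (plus), and SPEN, a transcriptional repressor, 0.19 and 0.05 RPM. Of the 25-nt peaks as a whole, 324 (12%) overlapped a peak of the opposite strand, against 19.4% of wider peaks.

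By kind of gene, 2307 of the 25-nt peaks (85.5%) were in protein coding genes, 96 in long noncoding RNA genes (lncRNA) and 38 in pseudogenes, and 248 were in genes left without a name. The lncRNA peaks had a median of 0.185 RPM in PRMT5 RIP against 0.065 RPM in input, and 69 of 96 (71.9%) were at least 2-fold higher, against 48.5% in protein coding genes. The median difference was 0.11 RPM in both kinds. Wider peaks of lncRNA were at least 2-fold higher in 62.5%, and those of protein coding genes in 59.0%. A microRNA hairpin lay under 3 of the 25-nt peaks. The peak in MIR3665 had 0.28 RPM in PRMT5 RIP and was listed at 0 in input, and it held no base of the mature microRNA.

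Within genes, the median position of 25-nt peaks was later than that of wider ones. For the 2439 peaks (90.4%) that could be placed, the median position was 55.1% of the gene's length from its start, against 38.0% for all wider peaks, 45.9% for 50-nt peaks, 39.0% for peaks over 1000 nt and 31.5% for peaks of over 100 and up to 1000 nt. The first 10% of the gene held 21.1% of them and the last 10% 23.0%. Positions are along the gene with its introns. In genes with 3 or more listed peaks, the 25-nt peak was the most 5′ one in 13%, an interior one in 58.8% and the most 3′ one in 28.2%, whereas wider peaks were the most 5′ one in 26.6%. Peaks that were the only one of their gene had a median position of 15.3%, and 46.3% of them were in the first 10%.

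Position, input and ratio moved together. The 515 peaks of the first 10% had medians of 0.18 RPM in PRMT5 RIP against 0.06 RPM in input and a median log2 ratio of 1.42, with 69.3% at least 2-fold higher. The 560 peaks of the last 10% had medians of 0.26 and 0.15 RPM and a median log2 ratio of 0.82, with 41.8% at least 2-fold higher. The 78 peaks inside a start window, from which the printed sequences were taken, had a median log2 ratio of 1.38, and 69.2% were at least 2-fold higher. The part of input level in this difference by position was not tested.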

How the data were processed

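The authors deposited 1 peak list for 2 PRMT5 RIP and 2 input libraries, with 1 RPM value per group and peak, pooled and rounded to 0.01. The submitters' processing notes name fastp, HISAT2 and hg38, and the peak caller and the way of pooling are not given in the sources used here. The list also holds the authors' log2 fold change, p-value, FDR and score, which were not used. Peak starts were raised by 1.

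Peaks of 25 nt with 1 identifier were compared with wider ones by medians, by log2 ratios with a pseudocount of 0.01, by 10 classes of input RPM, by gaps to the nearest peak of the same identifier and strand, and by position in the RefSeq gene (GRCh38.p14). A peak counted as called at 2-fold. Of 7980 identifiers 6781 were named, 809 from the study's supplementary list and 5972 by position, and for 735 of 737 both ways gave the same name. Sequences came from RefSeq start windows and hairpins.

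The members and gene lists were chosen with earlier results of these data known. Among genes with a symbol, named were the study's genes, the 10 genes with the most 25-nt peaks, the longest runs, the 10 peaks with the largest RPM, largest ratio (input of at least 0.05 RPM) and smallest ratio, and list members, some of which are not reported here. The genes with GTGAGT or GTAAGT, and those at the low end of the T cell receptor list, were chosen after their values were seen. Pseudocounts, filters, classes, width of comparison and gaps were varied. The computations were checked on made-up peaks with known answers. Intervals of 95% over peaks served only as limits for the alternative settings. They measure no spread between replicates, which could not be computed from pooled values. Python 3.11.15, pandas 2.3.3 and numpy 2.4.6 were used.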

Additional observations from a re-analysis of the deposited data

Results flagged for a closer look

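The 159 peaks of 25 nt with several gene identifiers took no part in the comparisons. Their median was 0.3 RPM in PRMT5 RIP against 0.17 RPM in input, and 145 of the 159 were higher in PRMT5 RIP. Their median log2 ratio was 0.78, and 65 (40.9%) were at least 2-fold higher. They were singled out by a rule that asks only whether the median in PRMT5 RIP is above that in input. The main set of 25-nt peaks also met it, with 0.23 and 0.11 RPM. In that set 49.5% were at least 2-fold higher, more than in these 159.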

How the results depend on the processing

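No paired analysis was possible because the peak list holds pooled values without replicate numbers. Of 69 alternative values, 24 moved less than their limit, 44 moved and 1 reversed. Except for the number of peaks, the limit came from a 95% interval over peaks, which is not a spread between replicates. The reversal came when peaks under 1 RPM in PRMT5 RIP were left out, a setting chosen after seeing the data: the median log2 ratio of 25-nt peaks was then -0.14 and that of wider peaks 1.06, the matched difference was -1.17, and the medians for PRMT5 RIP and input were 2.09 and 2.12 RPM for 25-nt peaks and 4.6 and 2.13 RPM for wider peaks. With a pseudocount of 0.1 the median log2 ratios were 0.62 (25 nt) and 1.02 (wider) and the matched difference -0.64, and with a pseudocount of 1 they were 0.13, 0.56 and -0.26. With only peaks of at least 0.1 RPM in input the ratios were 0.57 and 1.09, the matched difference -0.94, and the medians in PRMT5 RIP and input 0.34 and 0.23 RPM (25 nt) and 2.95 and 1.28 RPM (wider). Adding peaks with several identifiers gave wider peaks 1.13, 2.74 RPM and 1.19 RPM for ratio, PRMT5 RIP and input. Peaks of 26 to 100 nt gave 1.19, 0.69 RPM and 0.29 RPM. Without overlaps on the opposite strand the wider medians were 2.43 and 1.03 RPM. Medians per gene gave wider peaks a ratio of 1.24 and 2.72 RPM in PRMT5 RIP, with a matched difference of -0.85. The matched difference was -0.84 with 20 classes and -0.57 when matched on PRMT5 RIP. With 50-nt peaks alone, added after seeing the data, it was -0.58, at 0.46 RPM in PRMT5 RIP against 0.2 RPM in input. The matched difference stayed below 0 in every alternative run. A width of up to 50 nt gave 4173 peaks. The share with a neighbor was 30.2%, 40.9%, 55.3% and 64.2% at gaps of at most 25, 50, 250 and 1000 nt, 14.3% for 25-nt neighbors alone, and 45.8% without overlaps on the opposite strand, also added later. The median position was 15.3% in genes with 1 listed peak and 58.1% in the others. The rounding of RPM and the unknown depth limit every ratio of faint peaks.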
